A study of Mus musculus with 6 samples.

Results

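A group of 10 genes of the mitotic cell cycle was followed in mouse uterus after progesterone: the kinase Cdk1, its cyclins Ccna2, Ccnb1 and Ccnb2, the Cdk-binding proteins Cks1b and Cks2, and the chromosome proteins Smc4, Incenp, Top2a and Mki67. Every probe set of the array whose platform annotation gave one of these symbols as its only gene was taken, which gave 11 probe sets for 9 genes out of 12422 probe sets that were not controls. No probe set had Ccnb1 as its only gene, so Ccnb1 was not analysed here. Incenp and Mki67 had a pair of probe sets each, called the stronger and the weaker by their mean over the 6 arrays.

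The uteri came from 129/SvImJ wildtype female mice aged 10 to 16 weeks, all of them ovariectomized 14 days earlier, so that uninjected and injected mice alike lacked ovaries. Mice received 0.2 mg progesterone under the skin, dissolved in 0.1 mL sesame oil, and their uterine horns were taken 6, 12, 15, 18 and 24 h later; horns of mice with no injection are called 0 h. Each time had 1 RNA sample pooled from 8 horns of 4 mice and 1 Affymetrix array, so no time had a replicate. Mice given oil alone were not analysed here, and 1 uninjected array stands behind all differences from 0 h. Values are log2 expression, with a lower limit of 5.39 shared by all arrays. A level of 6.60, the 40th percentile of all values, had to be passed on at least 2 arrays for a probe set to be tested, as 7731 of the 12422 were, and 6 of the 11 passed: those of Cdk1, Ccna2, Ccnb2, Cks1b and Smc4, and the stronger one of Incenp. The medians of the 6 arrays lay between 7.12 and 7.22, and how precise any value is depends on there being 1 array per time.

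Cdk1 is the kinase that drives cells into mitosis. It is active only when bound to a cyclin, A-type cyclins acting from S phase onward and B-type cyclins at the entry into mitosis, and Cks proteins help the complex to bind its substrates. The cyclins are destroyed as cells leave mitosis. Transcripts of most of these genes are made in S, G2 and M phase and are held low in resting cells by a repressor complex that binds the CHR, a promoter element, so that their summed level in a tissue follows the share of cells that are cycling. In the mouse uterus, estrogen drives division of the epithelium, and progesterone opposes this and directs division to the stroma.

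The promoters of these genes are known for carrying CCAAT boxes, bound by NF-Y, close to a CHR. RefSeq promoter windows (GRCm38.p6, 250 bases before to 50 after the gene start) were at hand for 7 of the 10 genes, namely Cdk1, Ccnb1, Ccnb2, Cks1b, Cks2, Top2a and Mki67. The windows of Cdk1, Ccnb2 and Mki67 are shown as examples. These genes had, at 24 h, among the largest differences from 6 h in the values below. Cks2 had a larger difference than Ccnb2 (1.18 against 1.04) but is not shown. Its window held 4 CCAAT matches and no match to the other motifs. Capitals mark each match, on either strand, to CCAAT, to TTTGAA (the form of the CHR searched for), and to TTCCCGC and TTGGCGC (E2F-type cores). The window of Cdk1 is chr10:69352863-69353162, that of Ccnb2 chr9:70421505-70421804 and that of Mki67 chr7:135716330-135716629, all on the minus strand and written 5′ to 3′ along the gene.
Cdk1: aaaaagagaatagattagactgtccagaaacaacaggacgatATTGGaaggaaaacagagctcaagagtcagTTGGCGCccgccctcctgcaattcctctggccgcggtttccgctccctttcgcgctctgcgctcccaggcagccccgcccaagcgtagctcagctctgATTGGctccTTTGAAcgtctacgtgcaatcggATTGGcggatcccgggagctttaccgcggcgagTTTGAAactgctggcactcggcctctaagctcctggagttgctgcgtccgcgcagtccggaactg
Ccnb2: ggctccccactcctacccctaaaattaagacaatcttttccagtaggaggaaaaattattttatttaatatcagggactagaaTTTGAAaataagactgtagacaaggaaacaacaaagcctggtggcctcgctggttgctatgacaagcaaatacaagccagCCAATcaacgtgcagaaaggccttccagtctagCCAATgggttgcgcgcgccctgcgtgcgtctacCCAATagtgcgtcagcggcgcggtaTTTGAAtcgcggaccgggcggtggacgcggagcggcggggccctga
Mki67: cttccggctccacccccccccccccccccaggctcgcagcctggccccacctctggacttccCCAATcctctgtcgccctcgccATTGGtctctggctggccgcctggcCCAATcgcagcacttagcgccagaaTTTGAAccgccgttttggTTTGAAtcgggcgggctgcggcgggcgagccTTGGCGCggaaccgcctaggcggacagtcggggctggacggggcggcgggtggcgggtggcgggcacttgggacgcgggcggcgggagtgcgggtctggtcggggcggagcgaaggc

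CCAAT occurred in all 7 of the windows, against 37.4% of 32851 windows of the same length in the table. TTTGAA occurred in 5 of 7, those of Cdk1, Ccnb2, Cks1b, Top2a and Mki67, against 17.9% of all windows. TTGGCGC was found in 3 of 7, those of Cdk1, Ccnb1 and Mki67, against 2.45%, and TTCCCGC in 0 of 7, against 4.60%. Cdk1 held 3 CCAAT matches and 2 TTTGAA matches, the second of these starting at base 236 of the window, 15 bases before the annotated start. In Ccnb2 the 3 CCAAT matches started at bases 164, 197 and 230, followed by TTTGAA at base 255. The CCAAT and TTGGCGC matches of Ccnb1 shared bases, since the reverse of TTGGCGC ends in the first letters of CCAAT. These matches describe letters in the windows, and binding was not measured.

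**Figure D1:**
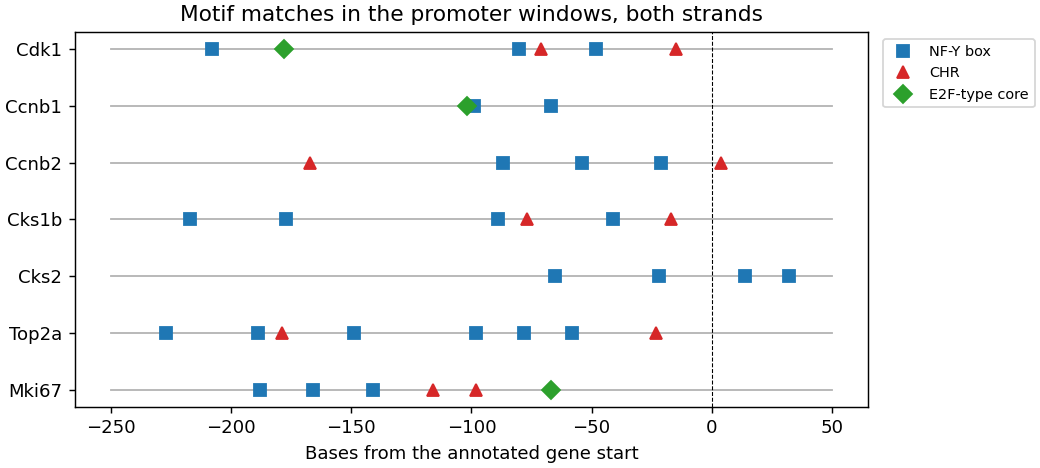
Each line is the promoter window of 1 gene, with its position in bases from the annotated gene start on the horizontal axis, and each symbol is the start of a motif match on either strand (squares, NF-Y boxes; triangles, CHR; diamonds, E2F-type cores). All 7 windows hold a CCAAT match, and 5 hold a TTTGAA match. Other forms of these elements were not searched for.

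Cdk1 dipped at 6 h and then climbed at each later time. At 0, 6, 12, 15, 18 and 24 h its values were 6.62, 5.96, 6.69, 7.05, 7.31 and 7.71. The 6 h array was the lowest and the 24 h array the highest, 3.38-fold above 6 h and 2.14-fold above 0 h. Ccnb2, one of the B-type partners of Cdk1, stayed near its 0 h level until 18 h and was higher at 24 h. Over the same times the array values were 7.25, 6.98, 7.29, 7.13, 7.28 and 8.02. Its 24 h value stood 0.74 above that at 18 h, while the 12, 15 and 18 h values lay within 0.17 of each other. Ccna2, the A-type cyclin of dividing somatic cells, had 8.20, 7.95, 8.44, 8.41, 8.51 and 8.48 in the order of the times. Its step came between 6 and 12 h, and the 4 later arrays were level, all above both 0 and 6 h.

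Cks1b, which besides binding Cdk1 helps the SCF ubiquitin ligase recognise the inhibitor p27, stepped up early like Ccna2. Its 6 values from 0 to 24 h were 7.89, 7.70, 8.50, 8.55, 8.45 and 8.56. The 4 arrays from 12 h on stood 0.56 to 0.67 above 0 h, and 6 h stood below it. Cks2, its close relative, moved differently. From 0 to 24 h it had 6.55, 5.77, 6.42, 6.51, 6.57 and 6.95, so that the 12, 15 and 18 h arrays had come back to the 0 h level and 24 h was above it. Cks2 exceeded the level of 6.60 on 1 array, that of 24 h.

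Mki67, the proliferation antigen Ki-67 that coats mitotic chromosomes, gave a weak signal with the widest range of the set. The stronger probe set had 6.08 at 0 h, the lower limit at 6 h, and then 6.01, 5.92, 6.33 and 7.28 at 12, 15, 18 and 24 h. The 24 h array was at least 3.71-fold above 6 h, a limit since 6 h could not be read below 5.39, and 2.31-fold above 0 h. The weaker probe set of Mki67 had 5.56 at 0 h, was at the lower limit at 6 h, and had 5.42, 5.77, 5.78 and 6.18 afterwards, again lowest at 6 h and highest at 24 h. Top2a, the topoisomerase that untangles sister chromatids, was at the lower limit at 0 and 6 h. From 12 to 24 h it had 6.13, 5.53, 6.11 and 6.26, at least 0.87 above 0 h at 24 h, with all values under the level of 6.60.

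Smc4, a condensin subunit that compacts chromosomes, took the other course. Its values from 0 to 24 h were 8.71, 8.45, 8.28, 8.23, 8.28 and 8.46, with all 5 progesterone arrays below 0 h. Incenp, which anchors the Aurora B kinase at the inner centromere, did the same on its stronger probe set, with 7.34, 7.08, 6.92, 6.92, 6.83 and 7.24. The weaker probe set of Incenp lay under the level of 6.60 on every array and took another course, with 5.97, 5.93, 6.00, 5.99, 6.35 and 6.53. The course of Incenp therefore depends on which probe set is read.

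**Figure D2:**
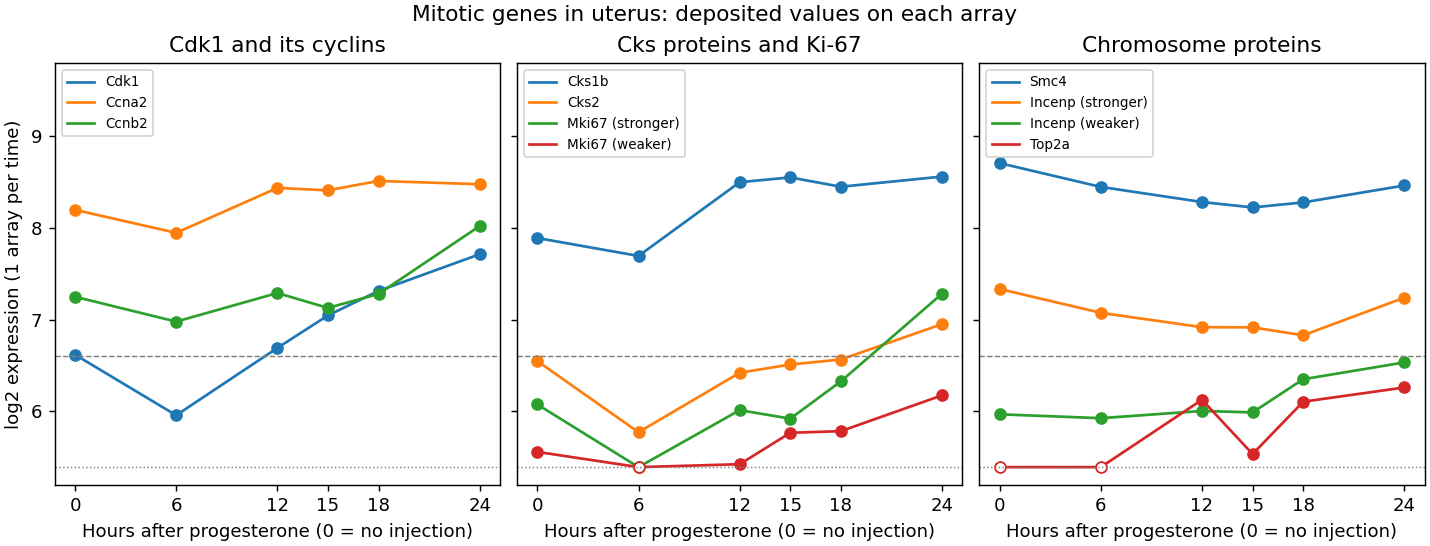
Deposited log2 expression of the 11 probe sets (vertical axis) against hours after progesterone, 0 being uninjected mice; each point is 1 array, open points lie at the lower limit of 5.39 (dotted), and the dashed line is the level of 6.60. Cdk1 has 5.96 at 6 h and 7.71 at 24 h, while Smc4 is highest at 0 h with 8.71.

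Most of the 11 probe sets were lower at 6 h and higher at 24 h than in uninjected mice. At 6 h, 10 of 11 lay below 0 h and the other, Top2a, was at the lower limit on both arrays; of all probe sets, 47.9% were lower at 6 h than at 0 h, and of those tested 59.3%. The 6 h differences from 0 h ran from -0.78 for Cks2, -0.68 for the stronger Mki67 probe set (a limit) and -0.66 for Cdk1 to -0.04 for the weaker Incenp probe set, where the 5th percentile of all probe sets was -0.59. With quantile normalization, or with the columns centred on their medians, 9 of 11 were lower. With values below the 40th percentile set to it 6 of 11 were lower, since Cks2 and the weak probe sets of Mki67 and Incenp then have equal values at 0 and 6 h, and Cdk1 had -0.02. At 24 h, 9 of 11 were above 0 h, against 40.4% of all probe sets, and the exceptions were Smc4 and the stronger Incenp probe set. At least 2-fold above 0 h at 24 h were 2 of 11, Cdk1 with 1.10 and the stronger Mki67 probe set with 1.21, against 0.897% of all probe sets. At 6, 12, 15 and 18 h no probe set of the 11 was 2-fold above 0 h, against 1.05%, 1.52%, 1.62% and 0.994% of all, and none was 2-fold below, against 0.952%, 1.45%, 1.44% and 1.52%. At 24 h none was 2-fold below 0 h either, against 1.22%. These counts have no replicate check, and since the tissue was measured whole, more cells of a type and more RNA per cell cannot be told apart. The genes were chosen with earlier results of these data known, so the shares of all probe sets are no independent check on the counts.

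**Figure D3:**
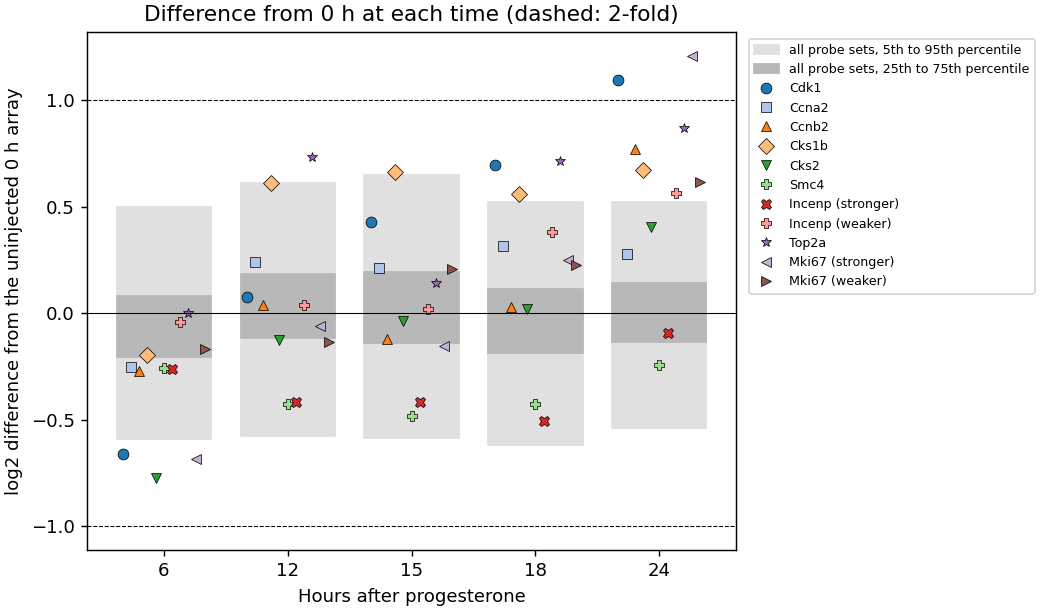
Log2 difference of each progesterone array from the 0 h array (vertical axis) at 6 to 24 h for the 11 probe sets, over bands from the 25th to the 75th and from the 5th to the 95th percentile of all probe sets; dashed lines mark 2-fold. At 24 h Cdk1 (1.10) and the stronger Mki67 probe set (1.21) lie past 2-fold, and at 6 h no probe set lies above 0.

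The 24 h array set against the 6 h array leaves the 0 h array out of the comparison, a contrast added after the values were seen. Since the genes too were chosen with earlier results of these data known, the shares of all probe sets given here describe and do not test. All 11 probe sets were higher at 24 h than at 6 h, by between 0.02 for Smc4 and at least 1.89 for the stronger Mki67 probe set, against 46.6% of all probe sets and 58.1% of those tested. At least 2-fold higher were 4 of 11, against 0.905% of all. These were Cdk1 with 1.76, Cks2 with 1.18, Ccnb2 with 1.04 and the stronger Mki67 probe set. With values below the 40th percentile set to it, 2 of 11 were 2-fold higher, Cdk1 with 1.12 (2.17-fold) and Ccnb2 with 1.04, while Cks2 had 0.35 and the stronger Mki67 probe set 0.68, and 8 of 11 were higher by any size. With quantile normalization or centred columns 10 of 11 were higher, Smc4 having -0.03 and -0.02. None was 2-fold lower, against 0.784%. In 8 of 11 the 6 h array was the lowest of the 6 and the 24 h array the highest, against 8.08% of the 10214 probe sets that were not at the lower limit throughout, a count in which ties at the lower limit pass. The exceptions were Ccna2, which was highest at 18 h, Smc4 and the stronger Incenp probe set. Over the 6 arrays, the 36 pairs among the other 9 probe sets had Pearson correlations of 0.52 to 0.97 with a median of 0.79, and Smc4 with the stronger Incenp probe set had 0.93. Between these groups, which were set after the values were seen, the 18 pairs had -0.66 to 0.39. All pairs share the same 6 arrays, so this describes the arrays only.

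The first test asked whether the 5 progesterone arrays as a group differed from 0 h. With limma, 0 of the 6 tested probe sets passed at an adjusted p under 0.05, against 2.93% of the 7724 with a test, and 1 of 6 had an unadjusted p under 0.05, against 19.3%. Smc4 was that probe set, at -0.37 ± 0.14 (SE, 5 progesterone arrays minus 0 h, limma adjusted p = 0.21), and the stronger Incenp probe set stood at -0.34 ± 0.18 (limma adjusted p = 0.35). Cks1b had 0.46 ± 0.30 (limma adjusted p = 0.46). Without the 6 h array the difference of Cks1b was 0.63 (limma adjusted p = 0.012), in a fit that called 991 probe sets, against 226 with all arrays. Cdk1, Ccna2 and Ccnb2 had 0.33 ± 0.51, 0.16 ± 0.21 and 0.09 ± 0.32, with limma adjusted p of 0.79, 0.74 and 0.92. In these genes the 6 h array lay below 0 h and most later ones above, which a comparison of means takes as spread.

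The second test asked whether levels moved steadily with time. Over the 5 progesterone arrays Cdk1 rose by 1.77 ± 0.19 on the log2 scale per 18 h (SE, limma adjusted p = 0.0058), and it was the 1 of 6 tested probe sets called, against 2.03% of all tested that rose and 1.66% that fell. At an unadjusted p under 0.05 were 4 of 6, against 21.7%. Cdk1 passed without each of the 5 arrays in turn, with slopes of 1.502 to 2.063 and limma adjusted p of up to 0.032. In a fit with no filter on low values, in which 0 of 12422 probe sets passed (0%) and 1789 had an unadjusted p under 0.05, the limma adjusted p of Cdk1 was 0.16. Ccnb2 had 0.94 ± 0.23 per 18 h and just missed the threshold (limma adjusted p = 0.055), passing with quantile normalization (0.049) and with centred columns (0.042). Without the 24 h array the slope of Ccnb2 was 0.39 (limma adjusted p = 0.46). Cks1b and Ccna2 had 0.76 ± 0.25 and 0.50 ± 0.19 per 18 h (limma adjusted p = 0.11 and 0.15), which came to 0.06 and 0.09 without the 6 h array. Without the 24 h array Cks1b had a slope of 1.21 (limma adjusted p = 0.049). Smc4 and the stronger Incenp probe set had 0.01 ± 0.17 and 0.12 ± 0.22 (limma adjusted p = 0.98 and 0.80).

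The 5 probe sets under the filter had slopes only in the fit with no filter. There the stronger Mki67 probe set had 1.80 ± 0.28, Cks2 1.10 ± 0.16, the weaker Mki67 probe set 0.81 ± 0.14, Top2a 0.78 ± 0.36 and the weaker Incenp probe set 0.65 ± 0.15 per 18 h, with limma adjusted p of 0.19, 0.18, 0.20, 0.44 and 0.24. The fits of Mki67 and Top2a include values at the lower limit, whose true levels may be lower. In that fit 6 of the 11 had an unadjusted p under 0.05, against 14.4% of all probe sets. When the 0 h array was put back, a trend over all 6 arrays was called for 0 of the 6 tested probe sets by limma, against 0.686% of all tested, with 4 of 6 at an unadjusted p under 0.05, against 16.7%. Cdk1 then had 1.42 ± 0.37 per 24 h and Cks1b 0.88 ± 0.25 (limma adjusted p = 0.11 and 0.14).

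**Figure D4:**
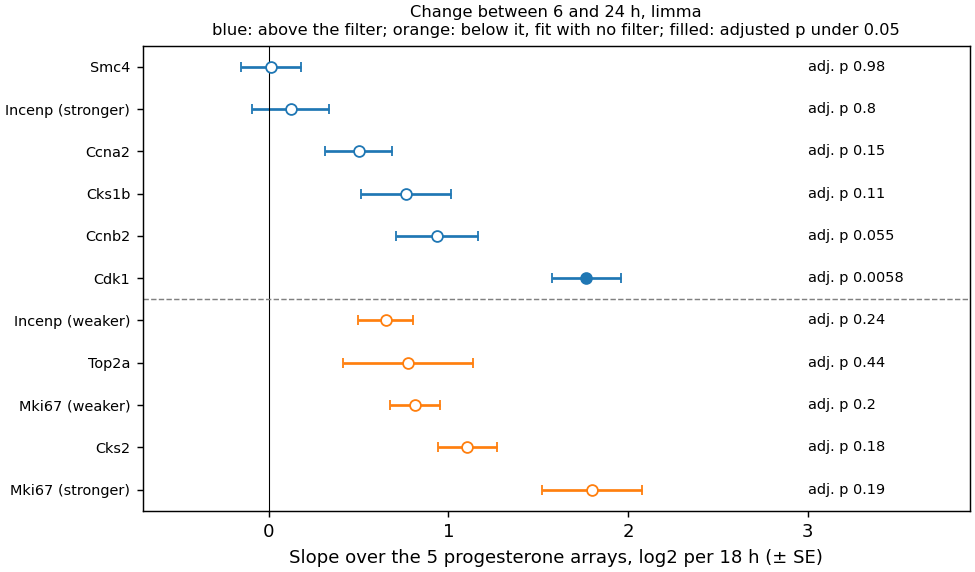
Slope over the 5 progesterone arrays in log2 per 18 h (horizontal axis, bars ± SE) for each probe set, with its limma adjusted p; blue probe sets passed the filter and orange ones were fitted with no filter. Cdk1, at 1.77, is the filled point with an adjusted p under 0.05, and Smc4 lies at 0.01.

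Other genes of mitosis were followed through a list of 47, of which 38 were on the array and 18 passed the filter. Among these 18, 1 rose over the progesterone arrays and 0 fell, and 0 were called against 0 h or over all 6 arrays. The one that rose was Aurkb, the Aurora B kinase that Incenp anchors, by 1.91 ± 0.23 per 18 h (limma adjusted p = 0.0067). Aurkb had 6.23 at 0 h, the lower limit at 6 h, and 6.08, 6.56, 6.76 and 7.29 at the later times, so its fit too includes a value at that limit. It exceeded the 40th percentile at 18 and 24 h only, so it entered the test through late arrays on which it was high. Its call as rising over time is therefore not independent of the filter. The slope of Aurkb was 0.66 (limma adjusted p = 0.11) with values below the 40th percentile set to it, and its limma adjusted p was 0.16 with no filter. Of the others, Cdc25a, a phosphatase that activates Cdks, had a mean difference from 0 h of 0.39 (limma adjusted p = 0.29). Mad2l1, of the spindle checkpoint, had -0.36 (limma adjusted p = 0.33), and Cdca8, a partner of Aurora B and Incenp, 0.21 (limma adjusted p = 0.67). Over all 38 measured genes the median difference from 0 h was -0.14 at 6 h and 0.17 at 24 h. For the 9 measured genes of the cyclin and Cdk1 set it was -0.26 and 0.67, and for all 8251 genes measured -0.03 and 0.00.

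Of 29 genes of chromosome structure, 21 were measured and 15 passed the filter. Hmgb3, a chromatin protein, rose over the progesterone arrays by 0.90 ± 0.16 per 18 h (limma adjusted p = 0.02), but had 0.73 (limma adjusted p = 0.18) without the 6 h array and an adjusted p of 0.16 with no filter. Ran, a small GTPase that guides nuclear transport and spindle assembly, rose against 0 h by 0.68 ± 0.15 (limma adjusted p = 0.048), but missed the threshold with no filter (0.16), with values below the 40th percentile set to it (0.057), with no intensity trend (0.073) and without the 12, 15, 18 or 24 h array (0.11, 0.10, 0.097 and 0.06). None of the 15 fell in any of the 3 fits. Rcc1, the exchange factor of Ran, had a mean difference of 0.66 (limma adjusted p = 0.085), the histone H2ax 0.35 (limma adjusted p = 0.18) and the cohesin subunit Stag2 -0.28 (limma adjusted p = 0.41). The median over the 21 was 0.10 at 6 h and 0.16 at 24 h.

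Of 26 genes of the G1/S step and replication, 24 were measured and 18 tested, and 0 were called in any of the 3 limma fits. Pcna, the sliding clamp of DNA polymerase, had a mean difference of 0.56 from 0 h, Cdk4, a G1 kinase, 0.54, and the replicative helicase subunit Mcm3 0.37 (limma adjusted p = 0.20, 0.17 and 0.50). The list median over the 24 measured was -0.12 at 6 h, 0.23 at 12 h and 0.17 at 24 h. Of 21 cell cycle brakes, 18 were measured and 15 tested, and 3 fell against 0 h, with 0 that rose, against 1.71% of all tested probe sets that fell and 1.22% that rose. Btg1, an antiproliferative protein, fell by 0.96 ± 0.16 (limma adjusted p = 0.019), Gadd45a, a stress-induced growth arrest gene, by 0.88 ± 0.17 (limma adjusted p = 0.033), and Cdkn1c, the Cdk inhibitor p57, by 0.79 ± 0.14 (limma adjusted p = 0.028). Each missed the threshold without the 12 h or the 15 h array, Cdkn1c also without 18 h, and Btg1 and Gadd45a also with no filter, with limma adjusted p of 0.055 to 0.11 across these fits. Gadd45b, of the same family as Gadd45a, had -1.36, Ccng1, a target of p53, 1.05, and the retinoblastoma gene Rb1 0.84 (limma adjusted p = 0.13, 0.24 and 0.24). The list median over the 18 was -0.33 at 6 h and -0.23 at 24 h. On the 6 h array Ccng1 stood 1.28 above 0 h, Cdkn2a, an inhibitor of the G1 kinases, 0.36, Rb1 0.21 and Rbl2 0.13.

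**Figure D5:**
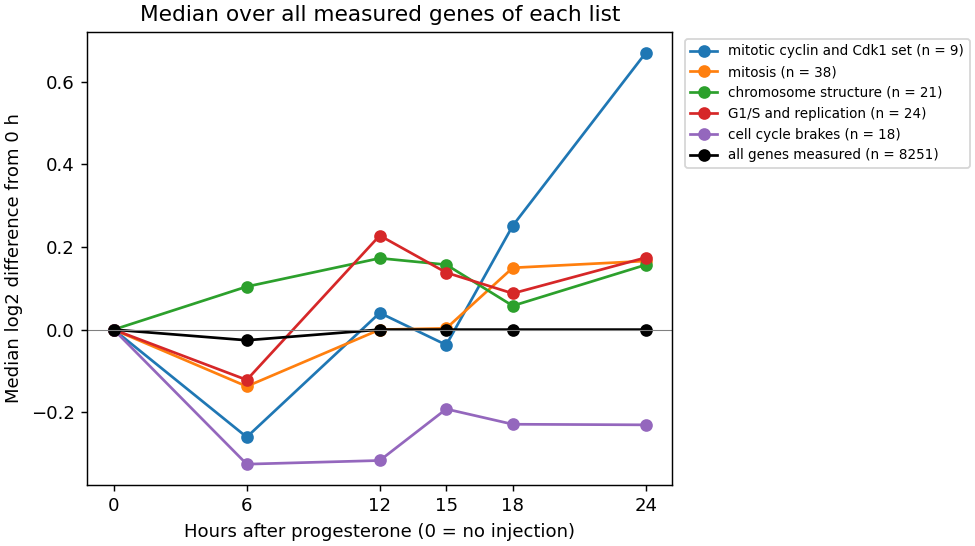
Median log2 difference from 0 h (vertical axis) over all measured genes of each list, against hours after progesterone; each point rests on 1 array. The cyclin and Cdk1 set has -0.26 at 6 h and 0.67 at 24 h, the cell cycle brakes -0.33 and -0.23.

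The genes outside the set with the likest course were found by Pearson correlation over the 6 arrays with the mean course of the 6 tested genes, among 559 tested probe sets with 1 symbol and a range of at least 1. The highest 5 were Gm10229 at 0.98, Aurkb, Fkbp7, a peptidyl-prolyl isomerase of the endoplasmic reticulum, Pclaf, the PCNA-associated factor of replicating cells, and Rpl13a, a ribosomal protein, the last at 0.96. Aurkb had 0.97, Fkbp7 0.97 and Pclaf 0.96. Of the 559, 16 exceeded 0.9, and the genes named are the highest of many compared over 6 arrays. The values of Pclaf from 0 to 24 h were 6.22, 5.97, 6.55, 6.55, 6.67 and 7.16. Like Aurkb, Pclaf passed the level required for testing on its latest arrays only. Both were thus compared because they were high late, which favours a rising course.

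The tissue label was borne out by Pgr, Esr1, Hoxa10, Hoxa11, Hoxd10, Wnt5a and Msx1, which passed the filter, while Wnt7a, made by uterine epithelium, was at the lower limit on every array and Wnt4 from 12 h on. Marker lists of the tissue's cell types also differed between the arrays. The summed linear level of 7 stroma markers was 13350 to 19278 on the progesterone arrays, lowest at 6 h and highest at 24 h, against 13838 at 0 h. Of 6 tested, 4 rose over the progesterone arrays by limma, against 2.03% of all tested: Col1a1, Col1a2, Col3a1 and Lum. The others went differently, with 24 h minus 6 h differences of -0.32 for Dcn, 0.18 for Pdgfra and -0.77 (a limit) for Vim, which was under the filter. That of the 6 smooth muscle markers with a value on every array was 12596 at 6 h and 15429 to 18166 from 12 h on, against 13543 at 0 h. Among 7 tested smooth muscle markers 1 rose over the progesterone arrays, Cnn1, a calponin of the contractile apparatus, by 0.86 ± 0.20 per 18 h (limma adjusted p = 0.045). For 10 epithelium markers the sum was 7548 to 8950, against 10799 at 0 h. Their mean differences from 0 h were negative except for Cldn3 with 0.43 and Cldn4 with 0.13. The largest were -1.58 for Ltf, -1.12 for Epcam, -1.05 for Krt7 and -1.03 for Krt18. Over the progesterone arrays Krt7 was the 1 of the 10 called, with a slope of -0.99 ± 0.21 per 18 h (limma adjusted p = 0.035), against 1.66% of all tested that fell. Adipocyte markers, 4 measured, summed to 962 to 1345, against 1923 at 0 h, with 0 of 3 tested called. Endothelium markers summed to 2777 to 3184, against 3185 at 0 h, and red cell markers to 2177 to 3779, against 2903 at 0 h. Of 7 measured lymphocyte markers, 2 passed the filter and 2, Cd3g and Cd79b, were at the lower limit on every array, with a sum of 439 to 512 against 535 at 0 h. The sum of 7 macrophage markers was 2971 to 3372, against 3364 at 0 h. Of 6 tested, 1 rose over the progesterone arrays, C1qb, by 0.78 ± 0.16 per 18 h (limma adjusted p = 0.034). The part of these differences in the course of Cdk1 and its partners was not tested.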

How the data were processed

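The deposited table holds log2 expression per probe set; its base was read from the values, since 99.7% of the antilogs under 2000 and above the lower limit came out at 4 decimals (tolerance 0.05 of the last unit), against 10.2% for the natural base. The authors' background correction and normalization were not given in the sources used here; per the labels, RNA preparation, labelling and hybridization followed the array maker. The 2% trimmed means of the columns lay within -4.10% to 3.42% of their median, so values were used as deposited. Of 12487 probe sets 65 controls were left out; 121 values were missing, 0 of them in the probe sets of the members. Genes were named from the platform annotation where it gave 1 symbol (10833 probe sets). Fits used limma 3.58.1 (lmFit, eBayes with intensity trend; R 4.3.3) on probe sets above the 40th percentile on at least 2 arrays, with Benjamini-Hochberg adjustment over all tested and a threshold of 0.05: progesterone arrays against 0 h (4 residual degrees of freedom), and linear slopes over 6 arrays and over the 5 progesterone arrays (4 and 3). Their spread is the variation over times, and 0 h, a single array, is assumed to vary likewise. The fits were tested on simulated data with a change of 2 on the log2 scale in 200 probe sets and independent noise of 1 common spread. The slopes and differences put in were recovered. Smaller changes, as in the member estimates of the main fits, were not simulated, nor was variation shared by an array. No additional floor was set in the main values. Named genes were all members, list genes called in any fit, up to 3 others per list by mean difference, and the 5 likest probe sets. In gene lists each gene counts by its probe set of highest mean. Members and lists were chosen with earlier results of these data known.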

Additional observations from a re-analysis of the deposited data

How the results depend on the processing

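No paired analysis was possible because each time had 1 array. Leaving out each array in turn gave 0 to 1 of the 6 tested probe sets called against 0 h, 0 to 1 over 6 arrays and 1 to 2 over the progesterone arrays. The 1 called against 0 h was Cks1b without the 6 h array. The 1 called over 6 arrays was Cdk1 without the 0 h array, which is the fit over the 5 progesterone arrays again. Without each of the other arrays the fit over 6 arrays called 0 of the 6, and 1 to 140 of all tested. The slope test over the progesterone arrays called 0 with no filter, 0 with the level of 6.60 required on every array, which removes Cdk1 from the test, 2 with quantile normalization and 2 with centred columns. Over all probe sets tested, this slope test called 446 with quantile normalization and 429 with centred columns, against 285 in the main fit. It called 0 of all with no filter and 252 with the level required on every array. With 1 array left out in turn it called 42 to 450 of all. Counted at 1.5-fold in place of 2-fold from 0 h, 3, 2, 1, 2 and 6 of the 11 passed at 6, 12, 15, 18 and 24 h. At 2-fold these counts were 0, 0, 0, 0 and 2. The share of all probe sets past 1.5-fold was not counted, so the 1.5-fold counts have no background beside them and are not read as a result. The 5th and 95th percentiles of all probe sets were -0.59 and 0.50 at 6 h and -0.54 and 0.52 at 24 h. At 12, 15 and 18 h they were -0.57 and 0.61, -0.59 and 0.65, and -0.62 and 0.52. With values below the 40th percentile set to it, 1 was 2-fold from 0 h at 24 h. In that setting 2 of 11 were 2-fold apart between 24 and 6 h (4 as deposited). There 6 were lower at 6 h than at 0 h (10 as deposited). Values below that level then become equal. Other settings for the 6 h count and the contrast of 24 with 6 h were chosen after seeing the data. Estimates near 0 changed sign with an array left out: Ccnb2 against 0 h ranged from -0.080 to 0.18, the slope of Smc4 over 6 arrays from -0.61 to 0.017 and over 5 from -0.29 (without 24 h) through -0.01 (without 12 h) to 0.31, and that of the stronger Incenp probe set from -0.64 to 0.16 and from -0.35 to 0.48. The cause was not tested. Signals near the lower limit of 5.39 bound what can be read for Mki67, Top2a and Cks2.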
